A study of Mus musculus with 37 samples.

Results

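Egr1, Egr2, Egr3, Ier2, Ier3, Nr4a1, Klf2, Klf4, Klf6 and Dusp1 are early response genes, transcribed within minutes to hours of a growth factor, serum or stress signal. These 10 genes were taken by symbol from the 51123 genes of the deposited expression table, and all 10 passed the filter on low values (at least 1 TPM, a transcript abundance normalized for gene length and library total, in at least 3 libraries) in both sets of libraries. The study asked how deletion of Trp53 alone or of Trp53 with Wwox in bone-forming progenitors changes cells of the marrow before osteosarcoma appears, and RNA was sequenced from cultured mouse cells in 37 libraries. In the knockout mice, Cre driven by the Osx1 promoter deletes Trp53 (SKO) or Trp53 and Wwox (DKO) in mesenchymal progenitors committed to bone and switches on a tdTomato reporter, so that other cells of the same culture keep both genes. DKO yBM and SKO yBM are bone marrow cells of young mice without tumors, DKO BMT and SKO BMT are marrow cells taken when a tumor was detected, DKO tumor and SKO tumor are cells of the osteosarcomas, and control BM is marrow of WT mice. Set 1 held 16 libraries (6 DKO yBM, 3 of them labelled 1.5 months and 3 labelled 4 months, 3 DKO tumor, 3 DKO BMT and 4 control BM), and set 2 held 21 libraries (3 each of DKO yBM, SKO yBM, DKO tumor, SKO tumor, DKO BMT, SKO BMT and control BM). No age was labelled for the other groups. Each group was compared with the control BM of its own set. The mice named in the methods equal in number the control BM, DKO yBM and tumor-bearing (BMT and tumor) libraries of set 1, while no source used here ties the libraries of set 2 to separate animals, so that p-values in set 2 may cover technical spread only. The study also calls the tumor and BMT cells of set 1 paired, so a tumor and a BMT library may share a mouse. The main fit took all libraries as separate.

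Early response genes are induced without new protein synthesis. Extracellular signals pass through the MAP kinase cascades to factors that already sit on the promoters, such as serum response factor with its Elk partners on CArG boxes and CREB on cyclic AMP response elements. The Egr proteins are zinc finger transcription factors, the Klf proteins are related zinc finger factors that bind GC-rich sites, Nr4a1 (Nur77) is an orphan nuclear receptor, Ier2 and Ier3 are short-lived proteins named for their immediate early response, and Dusp1 is a nuclear phosphatase that switches MAP kinases off again. In cultured bone cells several of them are known to respond to serum and parathyroid hormone, and such genes also respond to the handling of tissue and cells.

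The targeted genes did not follow the labels in every library. Wwox went against its label in 12 of 30 knockout libraries, when 50% of the mean of the control BM of the set was taken as the limit: in 5 of the 6 libraries labelled DKO yBM of set 1, 1 DKO BMT and 1 DKO tumor library of set 1, all 3 DKO tumor libraries of set 2, and 2 SKO BMT libraries of set 2 in which Wwox was low. In set 1 the library control BM 3 held Wwox at 32.0% of the control mean. Trp53 went against its label in 2 libraries, DKO BMT 2 and 3 of set 1. The groups are therefore called by their labels throughout. All 22 macrophage and other leukocyte markers had a group median of at least 1 TPM in the DKO yBM, DKO BMT and control BM of set 1 and in the control BM of set 2, where they summed to between 1032 and 28844 TPM per library. In the knockouts of set 2 only 3 to 6 of the 22 did. There they summed to at most 39.4 TPM in the yBM and tumor groups, to between 7.48 and 3322 TPM in SKO BMT and to between 8.38 and 1389 TPM in DKO BMT, where SKO BMT 2 and DKO BMT 2 were the high libraries. In the DKO tumor group of set 1 they summed to between 14.3 and 4263 TPM, the highest in DKO tumor 1. Ptprc was at or under 0.112 TPM in all knockouts of set 2 outside SKO BMT 2 and DKO BMT 2. Col1a1, the main collagen of bone, was between 274 and 14533 TPM in all libraries. The SKO tumor 2 library stood apart, with 11001 genes at 1 TPM or more against up to 13249 in others and 26.8% of its TPM on mitochondrial genes. Control column 1 of set 2 had the highest mitochondrial share of all 37 libraries, 32.5%, against 13.6% and 9.07% in the other control columns of that set. Fewer cells of a type and less RNA per cell cannot be told apart in these bulk libraries.

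The promoters of 4 members are shown with letters that early response factors are known to bind. RefSeq windows of the GRCm38.p6 build were matched for 7 members by symbol (Egr2, Ier3, Nr4a1, Klf2, Klf4, Klf6 and Dusp1), with 11 windows in all, and Egr1, Egr3 and Ier2 were not matched. Only the 250 bases before the start site were searched, on both strands, and the coordinates hold for that build, which is not the mm39 build of the processing notes. In Nr4a1 (chr15:101266596-101266845, plus strand) and Dusp1 (chr17:26508473-26508722, minus strand), the capitals mark TGACG on either strand, the core of the cyclic AMP response element. A match that overlaps an earlier one was not counted and is left in lower case.
Nr4a1: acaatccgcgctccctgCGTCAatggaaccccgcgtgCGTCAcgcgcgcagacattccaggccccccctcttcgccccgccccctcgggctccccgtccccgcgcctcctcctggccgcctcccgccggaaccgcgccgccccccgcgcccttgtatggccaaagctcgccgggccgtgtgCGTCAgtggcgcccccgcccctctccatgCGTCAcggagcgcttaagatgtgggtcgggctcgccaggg
Dusp1: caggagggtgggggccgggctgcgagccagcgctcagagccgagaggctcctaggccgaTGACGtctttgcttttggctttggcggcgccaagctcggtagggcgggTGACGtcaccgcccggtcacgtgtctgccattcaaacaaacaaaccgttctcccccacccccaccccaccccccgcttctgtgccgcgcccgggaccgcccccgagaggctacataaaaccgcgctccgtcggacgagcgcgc
The Nr4a1 window held 4 such motifs, starting 233, 213, 69 and 40 bases before the start site, and the Dusp1 window held 2 that do not overlap, at 191 and 143 bases. The second of Dusp1 is part of the full palindrome TGACGTCA, which holds TGACG on both strands with an overlap. No other member window held that palindrome, and 1.55% of all 32851 windows did. TGACG itself was in windows of 5 members (Egr2, Nr4a1, Klf2, Klf4 and Dusp1) and in 17.8% of all windows. In Klf2 (chr8:72318812-72319061, plus strand), the capitals mark the Egr motif GCGNGGGCG, 199 bases before the start site.
Klf2: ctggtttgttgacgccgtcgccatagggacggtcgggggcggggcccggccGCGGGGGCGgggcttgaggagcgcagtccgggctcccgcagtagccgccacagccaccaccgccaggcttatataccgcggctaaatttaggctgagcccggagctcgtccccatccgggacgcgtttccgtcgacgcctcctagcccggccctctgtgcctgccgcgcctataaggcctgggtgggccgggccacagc
That motif was in windows of 3 members (Nr4a1, Klf2 and Klf4) and in 4.7% of all windows. Egr2 held CArG boxes, the letters bound by serum response factor, given in capitals for the plus strand at chr10:67537484-67537513 and chr10:67537787-67537816. CArG boxes were in 1.47% of all windows.
Egr2 first CArG box: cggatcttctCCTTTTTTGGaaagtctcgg
Egr2 second CArG box: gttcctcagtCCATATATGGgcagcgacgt
A match of letters is a description and not evidence that a factor was bound in these cells.

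The 10 genes covered a wide range of levels. In the control BM of set 1, Dusp1 was the highest with 150 ± 99.8 TPM, followed by Egr1 with 109 ± 28.2, Ier3 with 76.6 ± 28.9, Klf6 with 67.1 ± 27.7, Ier2 with 58.1 ± 22.8, Klf2 with 38.2 ± 6.57, Nr4a1 with 28.1 ± 11.03, Egr2 with 22.9 ± 9.797, Klf4 with 14.4 ± 2.78 and Egr3 with 5.26 ± 2.97 TPM (mean ± SD, n = 4). The libraries of neighbours in that order overlapped except for Klf4 and Egr3. In the control BM of set 2 the order was different, with Klf6 at 74.5 ± 9.96, Dusp1 at 60.2 ± 20.3 and Ier3 at 51.8 ± 13.9 TPM, while Egr1 stood at 21.4 ± 2.25, Nr4a1 at 6.23 ± 1.46 and Egr3 at 0.695 ± 0.120 TPM (mean ± SD, n = 3). The lowest control library of set 1 was above the highest control library of set 2 for Egr1 (83.9 against 24.0 TPM), Nr4a1 (19.3 against 7.90 TPM), Egr3 (1.65 against 0.814 TPM) and Dusp1 (79.7 against 73.5 TPM). These control levels were not tested between sets, and the set and whatever else differed between the cultures cannot be told apart.

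**Figure D1:**
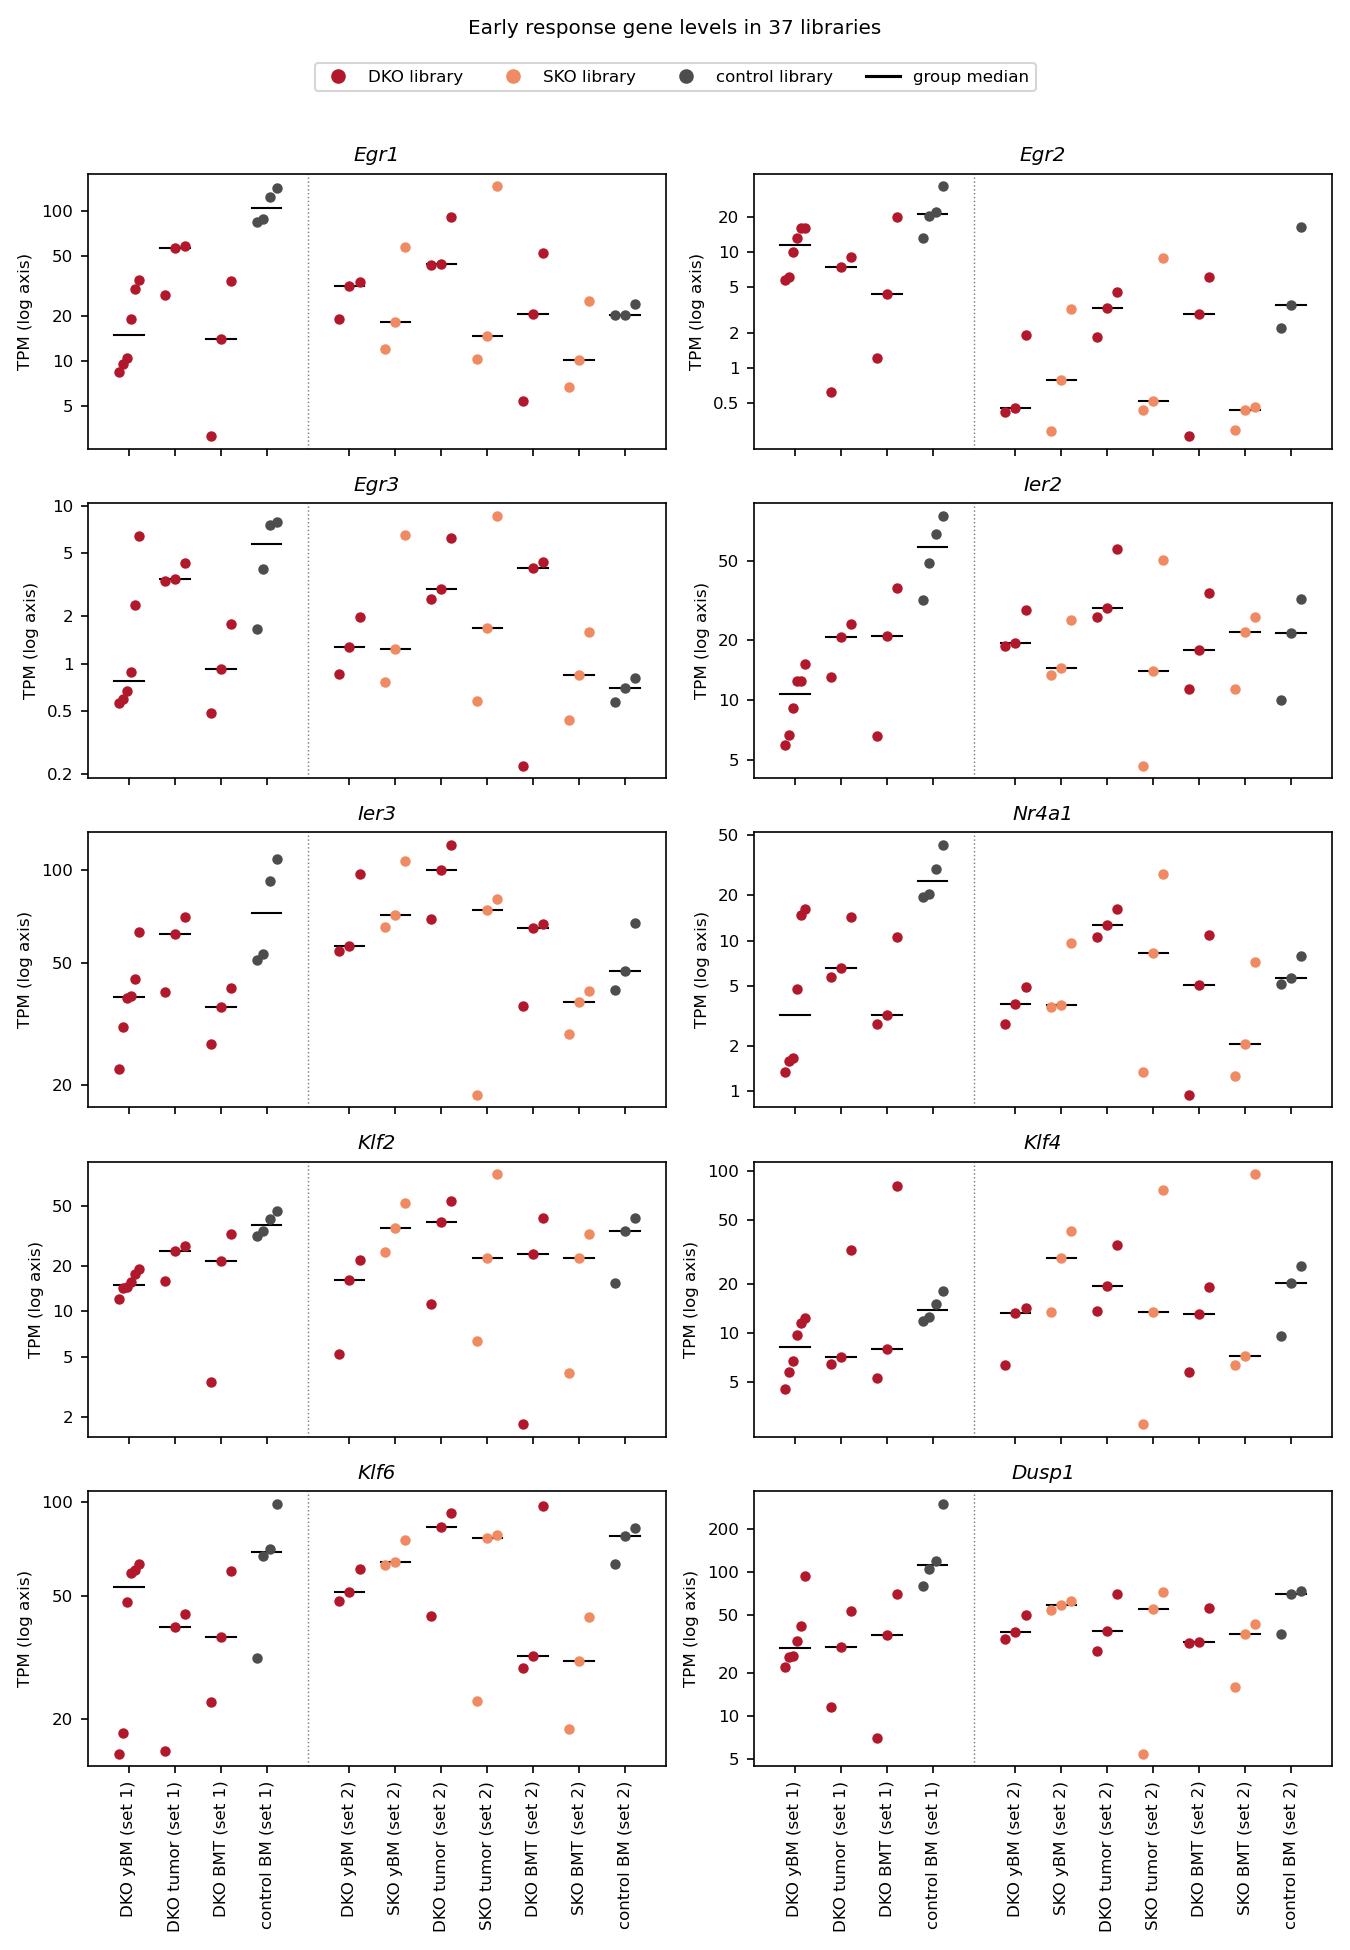
Level of each of the 10 genes in every library, in TPM on a log axis, with DKO and SKO groups left of the control BM of their own set (dotted line between sets). Points are libraries and bars are group medians, and in set 1 the 4 control libraries sit above all other libraries for Egr1 (83.9 TPM and higher) and Nr4a1 (19.3 TPM and higher), which they do not in set 2.

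Marrow cells of young DKO mice had lower levels of Egr1, Ier2 and Nr4a1 than control BM in set 1. Egr1, the serum- and growth factor-induced zinc finger factor, fell by 2.66 on the log2 scale (SE 0.52, adjusted p = 0.0159). Its level was 8.37 to 34.4 TPM (median 14.8) in the 6 libraries labelled DKO yBM, against 123, 88.0, 143 and 83.9 TPM in control BM. No DKO yBM library reached the lowest control. DKO yBM 2, 3 and 4 were the highest of the 6, at 19.1, 30.0 and 34.4 TPM, and DKO yBM 3 and 4 were also those with the lowest leukocyte markers of the group. Ier2 fell by 2.37 (SE 0.41, adjusted p = 0.00937), with 5.94 to 15.2 TPM (median 10.7) in DKO yBM, against 31.6, 67.9, 84.1 and 48.8 TPM in control BM. Nr4a1, which drives apoptosis or differentiation depending on the cell, fell by 2.35 (SE 0.59, adjusted p = 0.0305), with 1.35 to 16.3 TPM (median 3.21) in DKO yBM, against 43.1, 20.4, 29.7 and 19.3 TPM in control BM. The 6 DKO yBM libraries split widely in Nr4a1: DKO yBM 1, 5 and 6 were at 1.66, 1.35 and 1.59 TPM, and DKO yBM 3 and 4 were at 14.7 and 16.3 TPM.

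Of the 10 genes, 3 were called lower and none higher in this comparison, where 7.81% of 14404 genes tested were called in limma's test. These 1125 genes were between 156 and 941 when 1 library was left out, and the number moved by over 1.5 times without control BM 4 (156), DKO yBM 5 (349), DKO yBM 1 (366), control BM 2 (366), DKO yBM 6 (445), DKO yBM 3 (581) or control BM 1 (724). All 10 had a negative fold change, with a median of -1.23, as did 65.7% of all genes, with a median of -0.22. That all-gene shift depended on scaling: of the called genes 241 were higher and 884 lower, against 857 higher and 521 lower after median-ratio scaling, which set the median of all genes to -0.0010 and that of the 10 to -1.03 and called the same number, 3. Egr1, Ier2, Nr4a1 and Klf2 had every DKO yBM library below every control library, and 11.1% of all genes tested showed that. All fold changes were taken on log2(TPM + 1), so those of low genes are understated, and calls are at an adjusted p under 0.05 over all genes. With the 5 DKO yBM libraries left out whose Wwox goes against the label, Egr1 stood at -3.36, Ier2 at -2.46 and Nr4a1 at -3.38, and no gene of the 10 was called. That fit rests on DKO yBM 1 alone, assumed to vary like the other groups, and the adjusted p values were 0.607, 0.607 and 0.475, against a range of 0.00736 to 0.607 for Egr1 over 20 alternatives. Nr4a1 lost its call when any of DKO yBM 1, 5 or 6 or any control library was left out, with adjusted p values between 0.0581 and 0.0713. With the leukocyte markers as a covariate 5 of the 10 were called lower, with Ier3 and Dusp1 beside the 3. The share of all genes called in that fit is not given here, so the 5 cannot be set against it.

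The other members were lower in the same direction without passing the test. Egr2, the Egr factor of myelinating cells and of the hindbrain, was at 5.68 to 15.9 TPM (median 11.5) in DKO yBM, against 20.1, 13.2, 36.5 and 21.8 TPM in control BM (log2 difference -0.996, 95% interval -2.27 to 0.28). Egr3 was at 0.564 to 6.47 TPM (median 0.779), against 4.01, 1.65, 7.85 and 7.54 TPM (-1.22, SE 0.45, adjusted p = 0.0967). Without DKO yBM 3, which held the highest Egr3 of its group, Egr3 was called at -1.55 (adjusted p = 0.0352). Ier3, an ERK-regulated survival factor, was at 22.6 to 63.2 TPM (median 38.7) in DKO yBM, against 109, 92.5, 51.3 and 53.3 TPM in control BM (-0.92, SE 0.29, adjusted p = 0.0649). Dusp1, which dephosphorylates p38, JNK and ERK, was at 21.9 to 94.2 TPM (median 29.7), against 79.7, 118, 298 and 105 TPM (-1.86, SE 0.60, adjusted p = 0.0662). Ier3 and Dusp1 overlapped their controls through DKO yBM 4, and without that library they were called at -1.06 (adjusted p = 0.0411) and -2.14 (adjusted p = 0.0444).

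The Klf factors were also lower without passing the test. Klf2, a factor of quiescence in endothelial and T cells, was at 12.1 to 19.2 TPM (median 15.04) in DKO yBM, against 31.7, 46.2, 40.7 and 34.1 TPM in control BM. The groups did not overlap, and the fold change of -1.24 (SE 0.41) had an adjusted p of 0.0746. Klf4, one of the factors used to reprogram cells to pluripotency, was at 4.54 to 12.4 TPM (median 8.25), against 15.02, 18.1, 12.6 and 12.0 TPM (-0.76, 95% interval -2.04 to 0.51). Klf6 was at 15.5 to 63.3 TPM (median 53.3), against 70.7, 31.4, 99.0 and 67.2 TPM (-0.69, 95% interval -1.69 to 0.32). DKO yBM 3 and 4 had the lowest Klf6, at 18.0 and 15.5 TPM, and were the highest in Nr4a1, so Klf6 did not vary in step with Nr4a1 within the group.

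No age difference was found among the DKO yBM libraries of set 1. None of the 10 genes was called between 4 and 1.5 months in limma's test and none had an unadjusted p under 0.05, where 0.00694% of genes were called. The fold changes lay between -0.56 for Klf4 and 0.76 for Egr2, and the interval of Egr1 ran from -1.72 to 1.20, so that differences of that size cannot be told from none with 3 libraries each.

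In marrow of tumor-bearing DKO mice, Egr1 was the only one of the 10 genes called lower than in control BM of set 1. The DKO BMT libraries had 14.0, 3.13 and 34.1 TPM, against 123, 88.0, 143 and 83.9 TPM in control BM (-3.06, SE 0.62, adjusted p = 0.0274). This call was lost without DKO BMT 1 (adjusted p = 0.0575), DKO BMT 2 (0.0649) or control BM 4 (0.0533), and the adjusted p ranged from 0.0136 to 0.12 over 18 alternatives. It was also lost without both DKO BMT 2 and 3, whose Trp53 level contradicts their label, where Egr1 stood at -2.84. Of all genes 2.35% were called, 339 in number and 53 to 307 with 1 library left out, where every library except control BM 3 moved it by over 1.5 times and DKO BMT 3 gave the fewest. A further 7 of the 10 genes had an unadjusted p under 0.05, all with negative fold changes. Of all 14404 genes tested, 2866 had such a p in either direction. Nr4a1 was at 3.21, 2.81 and 10.5 TPM in DKO BMT, against 19.3 TPM in the lowest control library (-2.28, SE 0.70, adjusted p = 0.0883). Dusp1 was at 7.06, 36.3 and 70.7 TPM, against 79.7 TPM in the lowest control (-2.25, SE 0.70, adjusted p = 0.0924). Egr1, Ier3, Nr4a1 and Dusp1 had every DKO BMT library below every control library, and 9.64% of all genes did. With DKO BMT 2 and 3 left out DKO BMT 1 alone remained, assumed to vary like the other groups, and Dusp1, at 7.06 TPM in it, then stood at -4.04. The Wwox level of DKO BMT 1, 164% of the control mean, goes against its label. Every DKO BMT library of set 1 thus contradicts its label in Trp53 or in Wwox, and that fit is no check on cells that follow the label.

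Klf4 set the DKO BMT libraries of set 1 apart from each other. It was at 80.3 TPM in DKO BMT 1, with 7.98 and 5.31 TPM in DKO BMT 2 and 3, against 12.0 to 18.1 TPM in control BM. DKO BMT 1 also had the highest Col1a1 (10011 TPM) and Sp7 (133 TPM), the osteoblast factor osterix, in set 1. In set 2, SKO BMT 2 stood out in the same genes, with 95.2 TPM of Klf4, 14533 TPM of Col1a1 and 224 TPM of Sp7, and its Klf4 was the highest of all 37 libraries. In both libraries Dusp1 was low, at 7.06 and 15.96 TPM. These 2 libraries were picked out after their values were seen, and no test was made on them.

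In DKO tumor cells of set 1 none of the 10 genes was called in limma's test, in which 3.39% of all genes were called. An unadjusted p under 0.05 was found for 4 of the 10 and for 3262 of all 14404 genes tested. The genes called numbered 489. Leaving out control BM 4 gave 9, DKO tumor 3 gave 30, control BM 3 gave 50 and control BM 1 gave 737. Leukocyte markers moved with this comparison, with 13 of 22 called lower and a list median of -4.80, and with their level as a covariate none of the 10 genes was called either. Yet 6 genes, Egr1, Egr2, Ier2, Nr4a1, Klf2 and Dusp1, had every tumor library below every control library, and 10.6% of all genes tested did. Egr1 was at 58.7, 56.8 and 27.3 TPM in DKO tumor, against 83.9 TPM in the lowest control library (-1.23, 95% interval -2.54 to 0.09). Egr2 was at 8.95, 7.40 and 0.621 TPM, against 13.2 TPM in the lowest control (-2.13, SE 0.71, adjusted p = 0.0936). Dusp1 was at 11.5, 29.9 and 53.7 TPM, against 79.7 TPM in the lowest control (-2.26, SE 0.70, adjusted p = 0.0801). Ier2 had 24.0, 20.8 and 12.96 TPM in DKO tumor, against 31.6 TPM in the lowest control (-1.50, SE 0.48, adjusted p = 0.0871). All 10 fold changes were negative with a median of -1.12, against a median of -0.09 over all genes, of which 55.6% were negative.

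**Figure D2:**
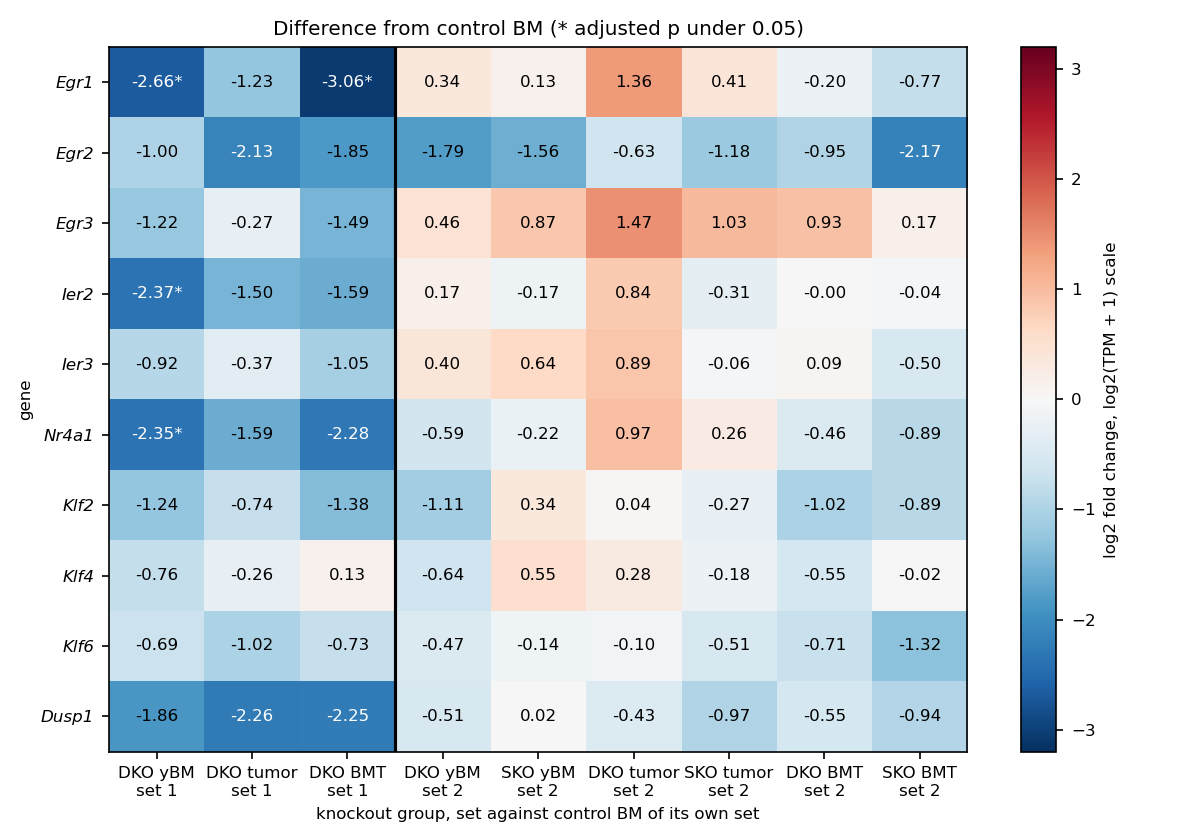
Log2 fold change of each gene (rows) in each knockout group (columns) against the control BM of its own set, on the log2(TPM + 1) scale, with red for higher and blue for lower in the knockout group, a vertical line between sets and an asterisk for an adjusted p under 0.05. The 4 calls, Egr1, Ier2 and Nr4a1 in DKO yBM and Egr1 in DKO BMT, are all lower and all in set 1.

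Tumor and marrow cells of tumor-bearing DKO mice in set 1 did not differ past the test in any of the 10 genes, where 0.257% of genes were called. An unadjusted p under 0.05 was found for 2 of the 10 and for 1861 of all 14404 genes tested. Egr1 was at 58.7, 56.8 and 27.3 TPM in DKO tumor, against 14.0, 3.13 and 34.1 TPM in DKO BMT (1.83, 95% interval 0.42 to 3.24, adjusted p = 0.233). Egr3 was at 3.46, 3.33 and 4.32 TPM in DKO tumor, against 0.928, 0.484 and 1.79 TPM in DKO BMT (1.23, 95% interval 0.03 to 2.43, adjusted p = 0.371). Egr3 was the only one of the 10 whose libraries did not overlap between these groups. It was higher in DKO tumor, and 5.32% of all genes tested showed that, so it is no result about Egr3. The study calls tumor and marrow cells paired, while the labels give numbers only and tie none to a mouse. With the replicate number as a block, none of the 10 was called either (Egr1 at an adjusted p of 0.369 and Egr3 at 0.315), and 0 genes were called in all, against 37 without it. That 37 was between 0 and 405 with 1 library left out and moved by over 1.5 times for each of the 6, the most without DKO tumor 1 and the fewest without DKO tumor 2. The leukocyte markers had a median difference of -4.83 here (1 of 22 called lower) and the smooth muscle markers one of 2.00 (0 of 6 called), and their part in these values was not tested.

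In set 2, none of the 10 genes was called against control BM in any of the 6 knockout groups. The shares of all genes called were larger than in set 1: 19.5% in DKO yBM, 13.5% in SKO yBM, 17.2% in DKO tumor, 11.6% in SKO tumor, 12% in DKO BMT and 13.4% in SKO BMT. At an unadjusted p under 0.05 there was 1 of the 10 in DKO yBM, 1 in DKO tumor, 2 in SKO BMT and 0 in the other groups. Of all 14458 genes tested, 4706 in DKO yBM, 4421 in DKO tumor and 4209 in SKO BMT had such a p. In the other groups 3460 to 4248 had one, so that the counts among the 10 are no result about them. The leukocyte markers moved with these comparisons, with 21 of 22 called lower in SKO BMT and all 22 in each of the other 5 groups, and their part in the values cannot be told apart from that of the group.

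In marrow of young mice in set 2, Egr1 was at 33.6, 31.4 and 19.0 TPM in DKO yBM, at 57.3, 12.0 and 18.2 TPM in SKO yBM, and at 20.1, 20.1 and 24.0 TPM in control BM. The differences from control were 0.34 in DKO yBM (95% interval -1.44 to 2.11) and 0.13 in SKO yBM (-1.64 to 1.90). Ier2 was at 28.4, 19.4 and 18.7 TPM in DKO yBM, against 9.94, 21.7 and 32.1 TPM in control BM (0.17, 95% interval -1.15 to 1.50). Nr4a1 was at 3.77, 2.80 and 4.92 TPM in DKO yBM, just under the 5.17, 5.62 and 7.90 TPM of control BM (-0.59, 95% interval -2.14 to 0.96). Egr2 was at 1.91, 0.415 and 0.449 TPM in DKO yBM, against 16.2, 3.47 and 2.21 TPM in control BM (-1.79, SE 0.75, adjusted p = 0.105). Egr2, Nr4a1 and Klf6 did not overlap and were lower in DKO yBM, as were 20.2% of all genes, and Egr3 did not overlap and was higher, as were 24.9%. Klf2 was at 16.1, 21.9 and 5.20 TPM in DKO yBM, against 35.5, 52.5 and 24.8 TPM in SKO yBM (-1.46, 95% interval -3.54 to 0.63). Klf2, Klf6 and Dusp1 were lower in DKO yBM than in SKO yBM with no overlap, as were 11.2% of all genes tested. None of the 10 was called between DKO yBM and SKO yBM in limma's test or had an unadjusted p under 0.05, and 0.0207% of all genes were called.

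Among the groups of set 2, Egr2 and Klf6 had their lowest means in SKO BMT, at 0.394 and 30.6 TPM. The medians were close to those of other groups. For Egr2 the median was 0.429 TPM, against 0.449 TPM in DKO yBM. For Klf6 it was 30.8 TPM, against 31.9 TPM in DKO BMT. Egr2 was at 0.461, 0.429 and 0.293 TPM in SKO BMT, against 16.2, 3.47 and 2.21 TPM in control BM (-2.17, SE 0.75, adjusted p = 0.0632), and it was called without control column 3 (-2.66, adjusted p = 0.0466). Klf6, a broadly expressed Klf factor, was at 18.5, 30.8 and 42.5 TPM in SKO BMT, against 63.4, 77.6 and 82.6 TPM in control BM (-1.32, SE 0.48, adjusted p = 0.0755). Klf6 passed the threshold under all 3 other scalings of the libraries, with adjusted p values of 0.0165, 0.0249 and 0.0458. The genes called in all also moved with the setting, from 1006 to 3447 over other filters, pseudocounts, scalings and samples in the fit, against 1931 in the main fit. Egr2, Ier3 and Klf6 did not overlap and were lower in SKO BMT, as were 16.8% of all genes. In DKO BMT of set 2 the libraries were far apart, with Egr1 at 20.6, 52.5 and 5.36 TPM and Klf2 at 23.9, 41.9 and 1.78 TPM in DKO BMT 1, 2 and 3, against 20.1 to 24.0 and 15.4 to 41.9 TPM in control BM. DKO BMT 2, the library with leukocyte markers, was the highest of the 3 in every one of the 10 genes except Egr3. Between DKO BMT and SKO BMT none of the 10 was called or had an unadjusted p under 0.05 in limma's test, and 0% of genes were called. The largest difference there was Egr2, at 2.89, 5.98 and 0.257 TPM in DKO BMT, against 0.461, 0.429 and 0.293 TPM in SKO BMT (1.22, 95% interval -0.36 to 2.80).

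Egr1, Egr3 and Nr4a1 had higher values in DKO tumor cells than in control BM of set 2, without passing the test. Egr1 was at 90.6, 44.6 and 43.7 TPM in DKO tumor, against 20.1, 20.1 and 24.0 TPM in control BM (1.36, SE 0.84, adjusted p = 0.298). Egr3 was at 2.98, 6.27 and 2.56 TPM in DKO tumor, against 0.574, 0.697 and 0.814 TPM in control BM (1.47, SE 0.65, adjusted p = 0.133). Nr4a1 was at 16.2, 10.6 and 12.7 TPM in DKO tumor, against 5.17, 5.62 and 7.90 TPM in control BM (0.97, SE 0.74, adjusted p = 0.41). Egr1, Egr3, Nr4a1 and Ier3 had every DKO tumor library above every control library, as did 21.8% of all genes tested. A fit of only these 2 groups, which estimates the spread from 6 libraries, called Egr1 (adjusted p = 0.0395) and Egr3 (adjusted p = 0.0248). Over the other filters, pseudocounts, scalings and samples in the fit, 2051 to 3677 of all genes were called in this comparison, against 2486 in the main fit. The 2 calls are to be read beside that. The Wwox level went against the label in all 3 of these tumor libraries, so a value without them cannot be given.

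The SKO tumor libraries were far apart. SKO tumor 3 was the highest library of set 2 in Egr1 (146 TPM), Egr3 (8.68 TPM), Nr4a1 (27.7 TPM) and Klf2 (81.3 TPM), while SKO tumor 2 had 10.2, 0.579, 1.34 and 6.36 TPM of the same genes. Dusp1 was at 55.3, 5.47 and 72.8 TPM in SKO tumor 1, 2 and 3, and 5.47 TPM was its lowest value in all 37 libraries. With that spread, the difference of DKO tumor from SKO tumor in Egr1 was 0.95 (95% interval -0.83 to 2.72). None of the 10 was called between DKO tumor and SKO tumor in limma's test, and 0% of all genes were called. An unadjusted p under 0.05 was found for 1 of the 10 (Ier3, 0.95, adjusted p = 0.592) and for 1213 of all 14458 genes tested. All 10 fold changes were positive there, with a median of 0.54, as were those of most genes, of which 30.7% were negative. Against the marrow of tumor-bearing mice, none of the 10 was called in SKO tumor or in DKO tumor, and none had an unadjusted p under 0.05, where 0.083% of genes were called in each comparison. Egr1 stood at 1.18 (95% interval -0.59 to 2.96) in SKO tumor against SKO BMT, and at 1.56 (-0.22 to 3.33) in DKO tumor against DKO BMT. Nr4a1 stood at 1.15 (-0.40 to 2.70) and at 1.43 (-0.12 to 2.98) in these comparisons.

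**Figure D3:**
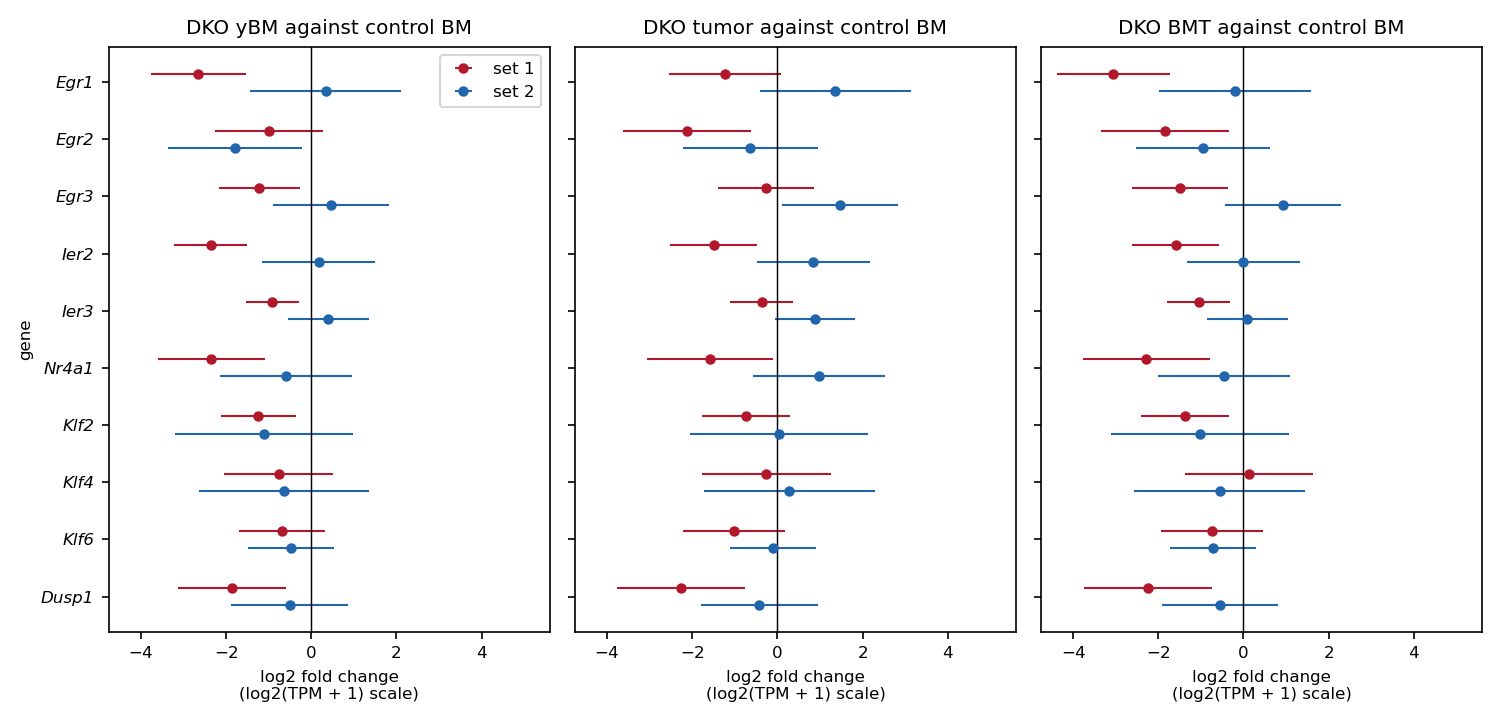
Log2 fold change of each gene in DKO yBM, DKO tumor and DKO BMT against control BM, on the log2(TPM + 1) scale, in set 1 (red) and set 2 (blue), with 95% intervals from limma. Egr1, Ier2 and Nr4a1 lie left of 0 in set 1 in all 3 panels, and right of 0 in DKO tumor of set 2.

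Whether the DKO effect differed between sets was tested in 1 fit over all 37 libraries, with each set's own control BM. In DKO yBM, Ier2 was the only one of the 10 called, with a difference of -2.54 on the log2 scale, set 1 minus set 2 (SE 0.76, adjusted p = 0.0492), where 4.82% of 15654 genes tested were called. That call stood at the threshold: it was kept under 7 of 24 alternatives, and the adjusted p ranged from 0.0322 to 0.399. It was lost in 13 of the 16 fits that left out 1 library, with the highest value, 0.201, without control column 1 of set 2. Egr1 differed by -2.99 (SE 1.02, adjusted p = 0.0857) and Nr4a1 by -1.77 (SE 0.98, adjusted p = 0.298). In DKO BMT none of the 10 was called in limma's test and 2 had an unadjusted p under 0.05 (Egr1 at -2.86 and Egr3 at -2.42). Of all 15654 genes there, 3.71% were called and 2093 had an unadjusted p under 0.05. Egr3 passed the threshold there without DKO BMT 3 of set 2 (-3.12, adjusted p = 0.0407). In DKO tumor none was called and 4 had an unadjusted p under 0.05 (Egr1 at -2.58, Ier2 at -2.34, Ier3 at -1.25 and Nr4a1 at -2.56). Of all 15654 genes there, 0.351% were called and 1286 had an unadjusted p under 0.05. All 10 differences were negative in DKO tumor, with a median of -1.62, against -0.14 over all genes. The control libraries of set 1 enter all 3 of these comparisons, so they are not independent of each other. Leukocyte markers also differed between sets, with 20 of 22 called in DKO yBM (list median 7.75) and 19 of 22 in DKO BMT (6.96). In DKO tumor 0 of 22 were called (3.45). The Ier2 call was lost with their level as a covariate. Their part in the values of the 10 genes cannot be told apart from that of the set.

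A list of 56 other early response genes was set beside the 10. In set 1, 8 of 54 tested were lower and 0 higher in DKO yBM, 5 lower in DKO BMT and 2 lower in DKO tumor, with list medians of -0.85, -0.65 and -0.60, against -0.22, -0.06 and -0.09 over all genes. These are 14.8%, 9.26% and 3.7% of the list, beside 7.81%, 2.35% and 3.39% of all genes, so that the share in DKO tumor is near that of all genes. Btg2, an antiproliferative gene known as a p53 target, was called lower in all 9 comparisons with control BM. It averaged 4.71 ± 4.27 TPM in DKO yBM (SD, n = 6), against 45.1 ± 14.7 TPM in control BM of set 1 (SD, n = 4), a fold change of -3.19 (SE 0.40, adjusted p = 0.00115). In set 2 it averaged 3.82 ± 0.75 TPM in DKO yBM, against 27.6 ± 14.3 TPM in control BM (SD, n = 3 each), a fold change of -2.42 (SE 0.52, adjusted p = 0.00305). Jun, the AP-1 partner of Fos, was at 18.7 ± 4.94 TPM in DKO yBM of set 1, against 53.8 ± 24.5 TPM in control BM (-1.42, SE 0.28, adjusted p = 0.0171), and Ier5, a relative of Ier2, was at 11.3 ± 4.76 TPM, against 32.8 ± 6.46 TPM (-1.53, SE 0.29, adjusted p = 0.0143). Fos was lower in DKO tumor of set 1 (-3.80, adjusted p = 0.04), at 11.6 ± 10.7 TPM against 163 ± 108 TPM in control BM, and lower in DKO yBM of set 2 (-3.51, adjusted p = 0.0132), at 2.32 ± 1.22 TPM against 37.7 ± 16.5 TPM. Ccn1 and Ccn2, matricellular genes of the Yap pathway and serum response, were lower in DKO BMT of set 1, by -3.02 and -3.09. Smooth muscle markers moved with them, with 2 of 6 called lower, a list median of -1.92 and a mean log2 level of 5.04 to 5.19 in DKO BMT against 6.17 to 7.94 in control BM, and their part in these values was not tested.

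In set 2 the shares of the same list that were called, 7.55% to 20.8%, lay near or below those of all genes, 11.6% to 19.5%, and are no result about the list. In DKO yBM 4 of 53 tested were higher and 7 lower, in SKO yBM 2 higher and 4 lower, in DKO tumor 4 higher and 5 lower, in SKO tumor 0 higher and 4 lower, in DKO BMT 2 higher and 4 lower, and in SKO BMT 1 higher and 5 lower. Fosl1, another AP-1 member, rose in DKO yBM to 64.0 ± 16.1 TPM, against 12.7 ± 1.16 TPM in control BM (2.22, SE 0.54, adjusted p = 0.00802). Gadd45b, a stress-response gene, rose in SKO yBM to 55.7 ± 21.7 TPM, against 16.6 ± 7.12 TPM (1.71, SE 0.47, adjusted p = 0.0224). Myc rose in DKO tumor to 109 ± 61.2 TPM, against 17.5 ± 4.67 TPM in control BM (2.42, SE 0.62, adjusted p = 0.0122). That was not particular to DKO tumor. Against 12.2 to 20.4 TPM in control BM, Myc was at 50.8 to 66.4 TPM in SKO yBM and 51.5 to 67.0 TPM in DKO yBM. It was at 37.5 to 85.0 TPM in SKO BMT, 51.8 to 90.7 TPM in DKO BMT and 5.33 to 65.0 TPM in SKO tumor.

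The relatives of the members and the factors above them were called in part, and each count is to be read beside the share of all genes called, 7.81% in DKO yBM of set 1 and 11.6% to 19.5% in set 2. Of 10 tested among 14 other Klf genes, Klf13 was lower in DKO yBM of set 1, at 5.50 ± 2.20 TPM against 15.8 ± 6.83 TPM in control BM (-1.36, adjusted p = 0.0252), and Klf16 was higher in DKO yBM of set 2, at 26.5 ± 3.81 TPM against 7.79 ± 3.83 TPM (1.75, adjusted p = 0.019). No other Klf gene was called in a comparison with control BM. Of the other MAP kinase phosphatases, 2 of 9 tested were lower in DKO yBM of set 1, Dusp5 (-1.55, adjusted p = 0.0472) and Dusp6 (-1.74, adjusted p = 0.0477), both of which act on ERK. Dusp5 did not keep that direction in set 2, where limma's test called it higher in DKO tumor (2.15, adjusted p = 0.0193). Its DKO yBM effect was called different between sets, by -3.40, set 1 minus set 2 (limma, adjusted p = 0.00585). In set 2, 2 to 4 of the 8 tested (25% to 50%) were called in each knockout group. Dusp6 was called lower in all 6 knockout groups, and in DKO yBM it was at 10.98 ± 4.20 TPM, against 44.2 ± 14.9 TPM in control BM (-1.93, adjusted p = 0.0297). Dusp9 and Dusp10 were called higher in DKO yBM of set 2, at 4.398 ± 2.82 and 12.2 ± 2.07 TPM, against 0.301 ± 0.0566 and 2.55 ± 0.148 TPM. Among 18 upstream regulators, 1 was called in DKO yBM of set 1 and 1 or 2 in each group of set 2, shares of 5.56% to 11.1% that lie below those of all genes. Map2k1 was lower in DKO yBM of set 1, at 21.1 ± 6.08 TPM against 51.9 ± 14.9 TPM (-1.26, adjusted p = 0.0143), and Mef2a, a factor that drives Klf2 and Jun in other cells, was lower in all 6 knockout groups of set 2, where it was at 11.7 ± 4.37 TPM in DKO yBM against 79.6 ± 7.50 TPM in control BM (-2.72, adjusted p = 0.000238). Mef2a is abundant in macrophages, and the leukocyte markers were low in the same groups. Their part in the Mef2a values was not tested and cannot be told apart from that of the group. The Egr corepressors Nab1 and Nab2 were tested in all comparisons and called in none of those with control BM.

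Across libraries, Egr1, Nr4a1, Ier2 and Egr3 varied together. The gene most like Egr1 among 9145 genes that averaged at least 5 TPM in both sets was Nr4a1, with a Pearson correlation of log2(TPM + 1) of 0.89 over the 16 libraries of set 1 and 0.79 over the 21 libraries of set 2, followed by Ier2 (0.87 and 0.73) and Spry2 (0.70 and 0.77), a feedback inhibitor of receptor tyrosine kinase signalling. The genes most like Egr3 were Egr1 (0.80 and 0.75) and Nr4a1 (0.79 and 0.74). Egr2 followed other genes, with Egr1 at 0.23 in set 1 and 0.65 in set 2, and its nearest were Ltbp2, Sptlc2 and Pmp22, the last a myelin protein gene. Klf2 was nearest to Rhob (0.81 and 0.82), Dusp1 to Fblim1 (0.79 and 0.80) and Ier5 (0.77 and 0.87), Ier3 to Maff (0.81 and 0.73), Klf4 to Add3 (0.78 and 0.79) and Klf6 to Zdhhc13 (0.85 and 0.79). Klf6 varied apart from Egr1 in set 1 (0.04) and not in set 2 (0.57). These correlations include the differences between groups, the libraries of each set share their controls and culture conditions, and no p is given.

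**Figure D4:**
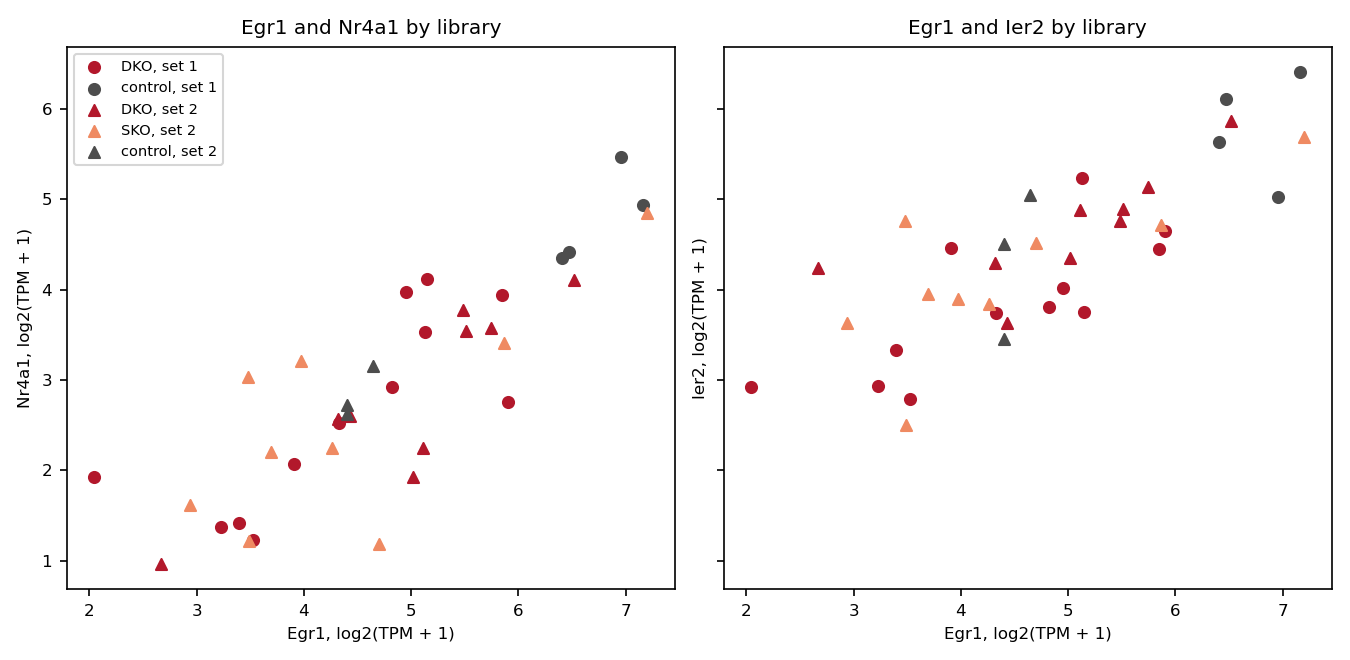
Level of Nr4a1 (left) and Ier2 (right) against that of Egr1 in every library, on log2(TPM + 1) axes, with circles for set 1 and triangles for set 2. Both rise with Egr1 in both sets, with Pearson correlations of 0.89 and 0.79 for Nr4a1 and 0.87 and 0.73 for Ier2, and the control BM of set 1 lies at the upper end.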

How the data were processed

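RNA of 37 cultured mouse marrow and osteosarcoma samples was sequenced from poly-A libraries. The deposited values are TPM (transcript abundance normalized for length and library total) per gene, made by the authors with Salmon after Trim Galore and FastQC. Trim Galore 0.6.1, DESeq2 and the build mm39 are listed in the submitters' processing notes. TPM keeps no depth, so the depth of the libraries is unknown and no counting interval is given. Symbols were matched for 48246 of 51123 gene IDs.

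Genes at 1 TPM or more in at least 3 libraries of a set were kept, log2(TPM + 1) was fitted over all groups of the set with limma 3.58.1 (R 4.3.3, trended empirical Bayes, two-sided), and p-values were adjusted by Benjamini-Hochberg over all genes tested (14404 in set 1, 14458 in set 2). The difference between sets was fitted over 37 libraries and 15654 genes. Calls required an adjusted p below 0.05. The fits were tested on simulated data. The 3 control columns of set 2 could be matched to their group but not to a numbered sample.

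The 10 genes and all lists were chosen with earlier results of these data known. All 10 genes were named in every comparison, then, of each list, at most the 3 of smallest p among those called, and the 3 genes of most similar pattern (highest smaller correlation of both sets, at least 5 TPM on average). Trp53 and Wwox were named as the targeted genes. Lists share members: Klf10, Dusp2, Dusp4, Dusp5 and Dusp6 are each in 2 lists. Marker lists of neutrophils, lymphocytes, erythroid, endothelial and smooth muscle cells were also measured. No lymphocyte or erythroid marker had a group median of 1 TPM.

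Alternatives were another pseudocount, other filters, 3 other scalings, a fit of only the groups compared, the replicate number as a block, the leukocyte level as a covariate and each library left out in turn. Leaving out libraries whose Wwox or Trp53 goes against the label was chosen after seeing the data. Same-numbered libraries deviated together only for DKO BMT against SKO BMT (correlations 0.29 to 0.38, against -0.29 to -0.03 for other pairs). The study calls DKO tumor and DKO BMT cells of set 1 paired, but no source used here ties a number to a mouse, and their correlations were -0.09 to 0.28. No 2 libraries correlated above 0.972.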

Additional observations from a re-analysis of the deposited data

Results flagged for a closer look

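The effect in marrow of young DKO mice was called different between sets for Ier2, by -2.54 on the log2 scale (limma, adjusted p = 0.0492). Of all genes tested there, 4.82% were called. The Ier2 call was kept under 7 of 24 alternatives, with limma's adjusted p from 0.0322 to 0.399. In set 1 Ier2 was at 5.94 to 15.2 TPM in DKO yBM against 31.6 to 84.1 TPM in control BM. In set 2 it was at 18.7 to 28.4 TPM in DKO yBM against 9.94 to 32.1 TPM in control BM. In tumor cells, Egr1 was below all control libraries in every DKO tumor library of set 1 and above all of them in every DKO tumor library of set 2. The difference of these effects was -2.58 and did not pass the test (adjusted p = 0.538). Nr4a1 showed the same opposite order, with a difference of -2.56 (adjusted p = 0.513). No library stood outside its group in the 20 tests of a single far value that the groups of 4 and 6 libraries allowed.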

How the results depend on the processing

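Over 3140 values of a gene under an alternative, 2872 kept their direction and side of the threshold, 39 lost a call, 17 gained one, 212 uncalled values changed sign and 0 called values changed sign. Most of these values belong to genes not called in the main fit, which had no call to lose. Among the called results, Egr1 in DKO BMT of set 1 kept its call under 10 of 18 alternatives. Ier2 between sets in DKO yBM kept it under 7 of 24, and the calls in DKO yBM of set 1 are given below. In DKO yBM of set 1, 3 of the 10 genes were called. That number was 5 in a fit of only the groups compared, 5 with the leukocyte level as a covariate, 0 without libraries of contradicting Wwox level, and 2 to 5 with single libraries left out. The share of all genes called with the leukocyte covariate is not given here, so the 5 of that fit cannot be set against it. Egr1 and Ier2 were each called under 18 of 20 alternatives and Nr4a1 under 10, with fold changes from -3.36 to -2.30, -2.62 to -2.08 and -3.38 to -1.78. In DKO BMT of set 1, 1 gene was called, against 0 without the filter, 0 with only the groups compared, 0 without libraries of contradicting Wwox level, and 0 to 1 with single libraries left out. In SKO BMT of set 2, 0 genes were called, against 2 after median-ratio scaling, 1 after quantile normalization, 1 without the mitochondrial genes and 0 to 1 with single libraries left out. In DKO tumor of set 2, 0 genes were called, against 1 after quantile normalization and 2 with only the groups compared. The 1 difference between sets in DKO yBM was 0 with a pseudocount of 0.1, 0 without a filter, 0 with the leukocyte covariate, 0 without libraries of contradicting Wwox level, and 0 to 1 with single libraries left out. The difference between sets in DKO BMT was 0, and 0 to 1 with single libraries left out. The cause of these changes was not tested. With a replicate block, where same-numbered libraries deviated together in 1 comparison only (same-number correlations -0.28 to 0.28 in the others), 0 of the 10 genes were called in DKO yBM and 0 in DKO BMT of set 1, and genes called overall were 20 against 1125, 43 against 339 and, in DKO tumor of set 1, 10 against 489. The block changed no other call among the 10 genes, also in that comparison and for DKO tumor against DKO BMT of set 1, with 0 genes overall against 37. A block was not possible for comparisons with the controls of set 2, whose numbers are missing, or for ages and differences between sets, which share none. Over other filters, pseudocounts, scalings, samples in the fit and the block, genes called ranged from 20 to 1968 in DKO yBM, 43 to 733 in DKO BMT and 10 to 877 in DKO tumor of set 1. Against 1958, 1931, 1737 and 1674 genes in SKO yBM, SKO BMT, DKO BMT and SKO tumor of set 2, 1588 to 3434, 1006 to 3447, 796 to 3130 and 783 to 2740 were called. With 1 library left out these were 1025 to 1688, 1266 to 1668, 1145 to 2056 and 1153 to 2105, and 1627 to 2419 against 2819 in DKO yBM and 1403 to 2029 against 2486 in DKO tumor. Depth is unknown and limits low genes such as Egr3.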
